A study of Sus scrofa with 35 samples.

Results

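The vacuolar proton pump (V-ATPase) was described through 10 of its subunit genes in whole blood of growing pigs under heat stress. The genes were chosen by name: ATP6V1A, ATP6V1B2, ATP6V1C1, ATP6V1D, ATP6V1E1, ATP6V1F, ATP6V1G1, ATP6V1H, ATP6V0C and ATP6V0D1, which makes 10 of the 11400 named genes in the authors' table. All blood samples came from castrated male pigs, with 1 array of a one-colour design for each of 35 pigs. The pigs were Creole (CR), Large White (LW) or F1 pigs of the cross between these breeds. They were slaughtered either in thermoneutral conditions (TN) at 24 °C or after heat stress (HS), for which the sample labels give 30 °C and the protocol text gives 32 °C over 5 d. The groups were of 6 pigs, with 5 for CR pigs in TN. The TN pigs were slaughtered before the temperature was raised, so that climate and the day of slaughter cannot be told apart. Pigs were penned by breed, each pen was slaughtered in a single climate, and pigs had littermates in the study. Since the labels name neither pen nor litter, every standard error (SE) treats the pigs as independent. Where pigs of a pen are alike, the SE of a difference between HS and TN is too small.

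The V-ATPase is a rotary motor built from a cytosolic sector, V1, which hydrolyses ATP, and a membrane sector, V0, through which protons cross. It acidifies lysosomes, endosomes, phagosomes and secretory granules, and thereby sets the activity of lysosomal hydrolases and the degradation of engulfed material in white blood cells. Cells adjust the pump mainly by assembling and separating both sectors and by transcription of its genes, which belong to the lysosomal gene network of the MiT/TFE transcription factors. Reticulocytes still carry such organelles and lose them as they mature, while mature red cells of mammals have none.

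The 10 genes were read by 21 probes of 60 bases, and 19 of them were in the authors' table of log2 values. All 19 were well above background on all 35 arrays. The remaining probes, O632 of ATP6V1B2 and O10234 of ATP6V1G1, were well above background on 1 and 5 arrays and were used in no main result. No member probe shared its sequence with a probe of another gene. Some of the sequences are shown because the results below turn on whether probes of 1 gene changed together. They are printed 5′ to 3′ as in the scanner files and in lower case throughout, either whole or as the first 30 bases.
ATP6V1E1, probe A_72_P497293, first 30 bases: cccagtcctgtctgtctgtaatcctgtctg
ATP6V1E1, probe O14775, first 30 bases: tttataggcaaagcactgtcaatagtggtt
ATP6V1B2, probe A_72_P148916, first 30 bases: cctgtccccacctttgtgttggagtttact
ATP6V1B2, probe A_72_P042616, first 30 bases: ggggggaggagtcagcatgattctatttta
ATP6V1H, probes A_72_P302734 and O2249, first 30 bases: ctgatttcccatacaagtgtttgcctgtta
ATP6V1H, probe A_72_P188606, 60 bases: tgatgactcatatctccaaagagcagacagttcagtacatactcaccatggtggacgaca
ATP6V0D1, probe O10518, 60 bases: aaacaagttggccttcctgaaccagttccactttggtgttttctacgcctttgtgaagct
The probes A_72_P302734 and O2249 of ATP6V1H were identical over their 60 bases and measured the same target, so the 21 probes held 20 distinct sequences.

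A gene's value was the mean log2 intensity of its probes in the authors' table, and a gene was called when its adjusted p-value in limma was under 0.05 over all named genes. Over the 3 breeds, 8 of the 10 subunits differed between HS and TN, and 40.1% of all named genes did. Of these 8, 7 were up-regulated in HS (24.1% of all named genes) and 1, ATP6V1E1, was down-regulated (16% of all named genes). The median log2 difference of HS minus TN was 0.17 over the 10 subunits and 0.05 over all genes. Differences were small for the genes that rose, between 0.13 and 0.25 on the log2 scale, and larger for ATP6V1E1 at -0.84. Whole blood is a mixture, and fewer cells of a type cannot be told apart from less RNA per cell.

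**Figure D1:**
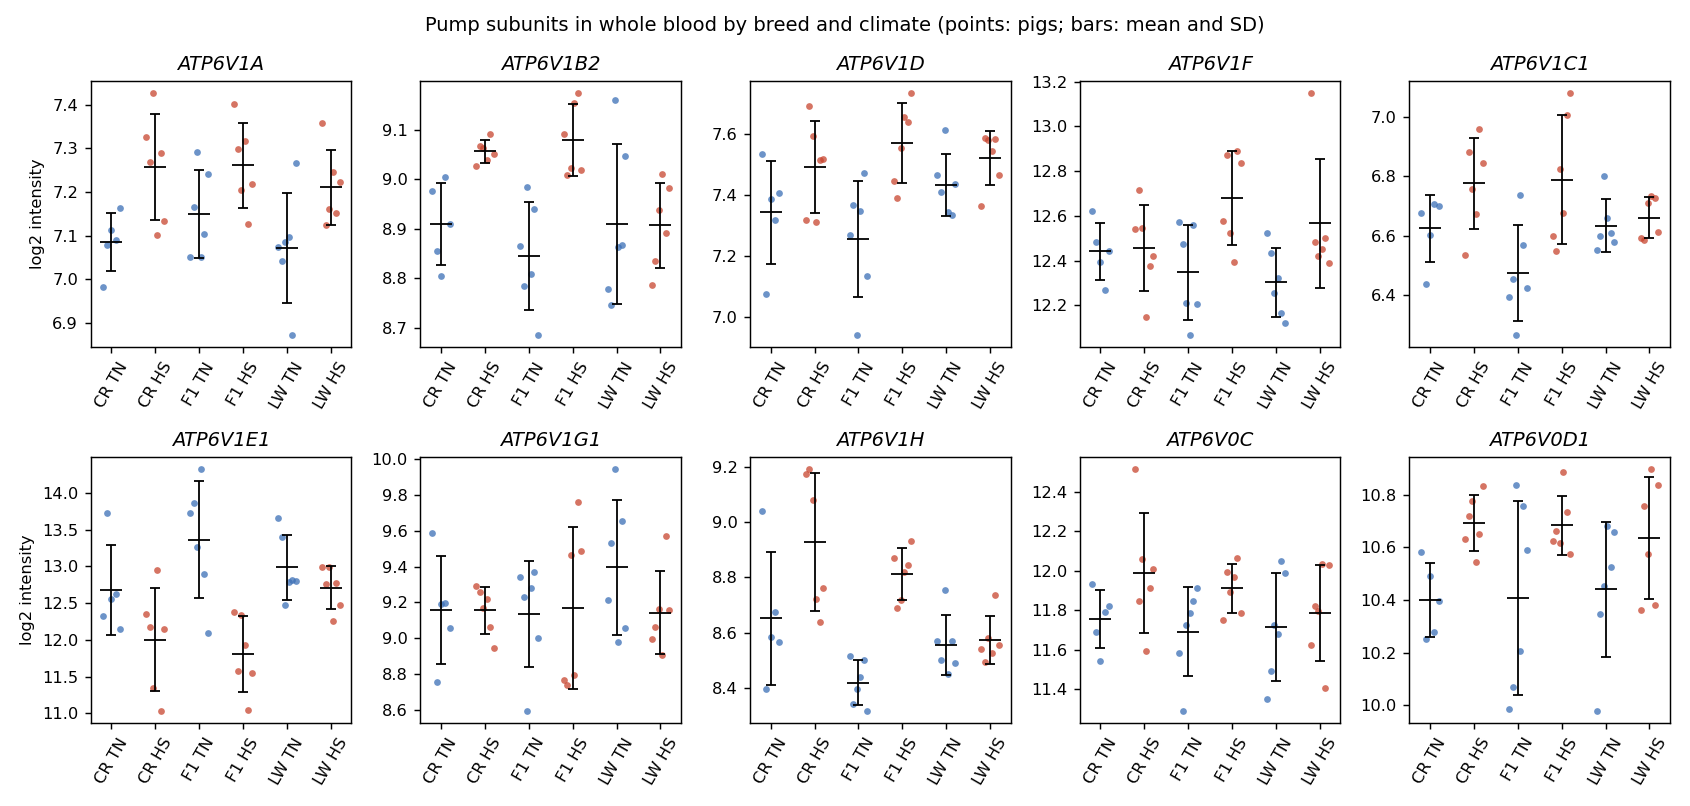
Log2 intensity of each pump subunit (vertical axes, each with its own range) in the 6 groups of breed and climate, 1 point a pig (blue for TN, red for HS), with bars for the mean and SD. In F1 pigs every HS value of ATP6V1B2 and ATP6V1H lay above every TN value, and the means of ATP6V1E1 fell from 13.36 in TN to 11.80 in HS.

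Subunits A and B form the ring of V1 in which ATP is hydrolysed. ATP6V1A, the catalytic subunit, rose by 0.14 ± 0.04 (log2, SE; adjusted p = 0.00837) and lay above the TN mean of its breed in 17 of 18 HS pigs. ATP6V1B2, the B subunit of most tissues, rose by 0.13 ± 0.04 (adjusted p = 0.0215). In CR pigs in TN conditions the values of ATP6V1B2 were 8.80, 8.86, 8.91, 8.98 and 9.005, and the 6 HS pigs ranged from 9.03 over a median of 9.06 to 9.09. In F1 pigs they ranged from 8.69 over 8.84 to 8.98 in TN and from 9.01 over 9.06 to 9.17 in HS. All HS pigs therefore lay above all TN pigs in CR and in F1 pigs, whereas in LW pigs the groups overlapped, with medians of 8.87 in TN and 8.92 in HS. The means of LW pigs did not rise, with a difference of -0.0031, and 3 of 6 HS pigs lay above the TN mean. The separation in CR and F1 pigs held for the mean of 2 probes. Their differences in CR pigs had opposite signs, 0.36 for A_72_P042616 and -0.07 for A_72_P148916. In F1 pigs both were positive, 0.32 and 0.14.

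Every HS pig lay above every TN pig for 1 of the 10 subunits in CR pigs, ATP6V1B2, and for 2 in F1 pigs, ATP6V1B2 and ATP6V1H. Among all named genes this held for 0.412% in CR pigs and 4.89% in F1 pigs. In LW pigs it held for 0 subunits and 0.684% of all genes.

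Subunits D and F make up the central shaft that ATP hydrolysis turns. ATP6V1D rose by 0.18 ± 0.05 (adjusted p = 0.00796), with 15 of 18 HS pigs above the TN mean of their breed. ATP6V1F rose by 0.21 ± 0.07 (adjusted p = 0.0213), also in 15 of 18 HS pigs. In F1 pigs ATP6V1D ranged from 6.94 over 7.31 to 7.47 in TN and from 7.39 over 7.60 to 7.73 in HS. ATP6V1F ranged there from 12.07 over 12.34 to 12.57 in TN and from 12.39 over 12.71 to 12.89 in HS. Both genes thus had 4 of 6 HS pigs above the highest TN pig in F1 pigs, and neither separated the groups completely. The ATP6V1F value of 1 LW pig in HS, 13.15, stood apart from the other 5, which lay between 12.39 and 12.50.

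Subunits C, E, G and H form the outer stalks that hold the V1 ring still against the membrane sector, and C and H take part in regulated assembly. ATP6V1C1 rose by 0.17 ± 0.06 (adjusted p = 0.0181), and in F1 pigs it ranged from 6.26 over 6.44 to 6.74 in TN and from 6.55 over 6.75 to 7.08 in HS. ATP6V1H rose by 0.23 ± 0.06 (adjusted p = 0.00483), and 13 of 18 HS pigs lay above the TN mean of their breed. In F1 pigs ATP6V1H ranged from 8.32 over 8.42 to 8.52 in TN and from 8.69 over 8.83 to 8.93 in HS. In CR pigs it took the values 8.39, 8.56, 8.58, 8.67 and 9.04 in TN and ranged from 8.64 over 8.92 to 9.19 in HS. In LW pigs it ranged from 8.45 over 8.53 to 8.75 in TN and from 8.49 over 8.55 to 8.74 in HS. The groups of F1 pigs did not overlap, those of CR pigs overlapped, and those of LW pigs covered nearly the same range.

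ATP6V1E1, whose product pairs with subunit G in each stalk, was the subunit that fell, by 0.84 ± 0.20 on the log2 scale (adjusted p = 0.00263), a ratio of HS to TN of 0.558. The values of CR pigs were 12.15, 12.32, 12.56, 12.63 and 13.73 in TN and ranged from 11.04 over 12.16 to 12.96 in HS. F1 pigs ranged from 12.09 over 13.49 to 14.33 in TN and from 11.04 over 11.76 to 12.38 in HS. LW pigs ranged from 12.47 over 12.81 to 13.66 in TN and from 12.26 over 12.77 to 12.99 in HS. The groups overlapped in every breed, and 3 of 18 HS pigs exceeded the TN mean of their breed, 0 of them F1 pigs. Its partner ATP6V1G1 was not called, with a log2 difference of -0.08 ± 0.10 (adjusted p = 0.573) and a 95% interval from -0.29 to 0.13. Its group means lay between 9.14 and 9.40, and 8 of 18 HS pigs exceeded the TN mean of their breed.

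In the membrane sector, ATP6V0C encodes the subunit of the proton-carrying ring and ATP6V0D1 the subunit that couples this ring to the shaft. ATP6V0D1 rose by 0.25 ± 0.07 (adjusted p = 0.00881), with 16 of 18 HS pigs above the TN mean of their breed. ATP6V0C differed by 0.17 ± 0.08 and did not pass the threshold (adjusted p = 0.0701), although 15 of 18 HS pigs lay above the TN mean of their breed. In CR pigs ATP6V0D1 took the values 10.25, 10.28, 10.40, 10.49 and 10.58 in TN and ranged from 10.54 over 10.68 to 10.83 in HS. Of these HS pigs, 5 of 6 were above the highest TN pig. ATP6V0C is read by 1 probe and ATP6V0D1 by 1 probe, so no second probe stood beside either.

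**Figure D2:**
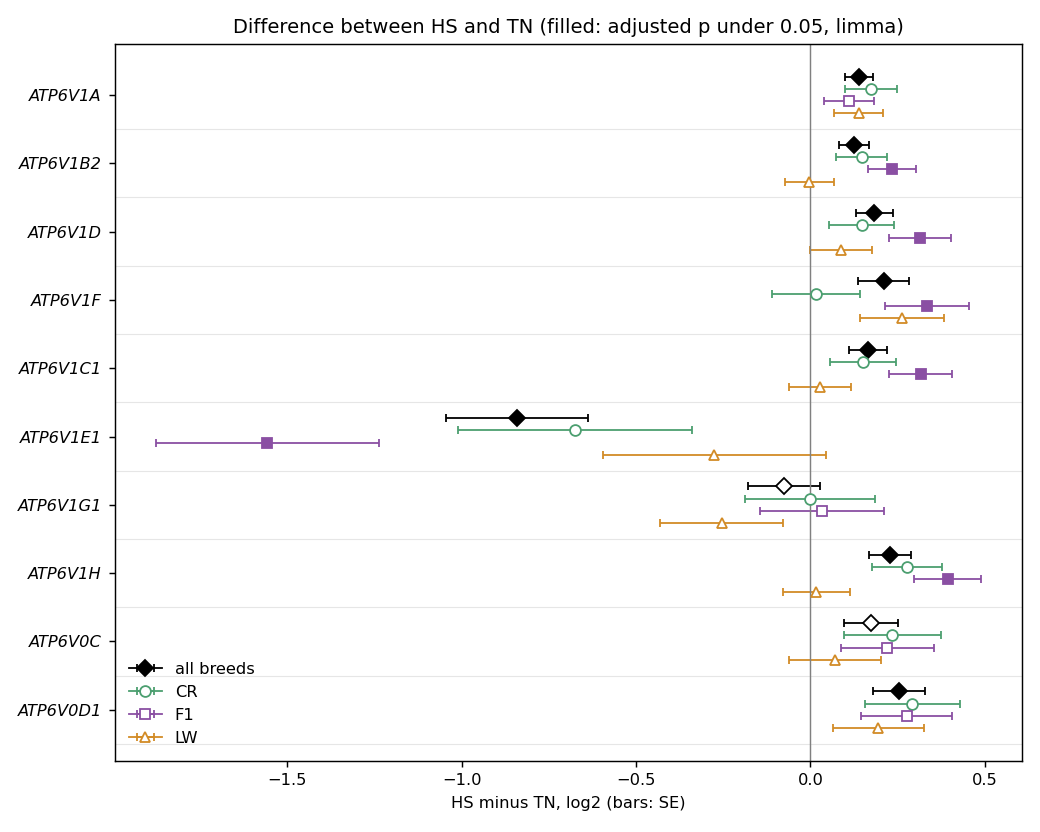
Log2 difference of HS minus TN (horizontal axis, bars are SE) of each subunit over all breeds and within CR, F1 and LW pigs. Filled symbols passed an adjusted p of 0.05 in limma, which 8 subunits did over all breeds, 6 in F1 pigs and 0 in CR and in LW pigs.

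Within breeds, 6 of the 10 subunits passed the threshold in F1 pigs, as did 43.4% of all named genes. The 5 that rose, among 24.2% of all genes that rose there, were ATP6V1H by 0.39 ± 0.10, ATP6V1F by 0.33 ± 0.12, ATP6V1C1 by 0.32 ± 0.09, ATP6V1D by 0.31 ± 0.09 and ATP6V1B2 by 0.23 ± 0.07. The gene that fell, among 19.2% of all genes, was ATP6V1E1 by 1.56 ± 0.32 on the log2 scale (adjusted p = 0.000577), a ratio of HS to TN of 0.34. The median difference in F1 pigs was 0.25 for the subunits and 0.12 for all genes. In CR pigs 0 subunits and 0% of all genes passed the threshold in limma, and 1132 genes had an unadjusted p under 0.05, including 3 subunits, ATP6V1H, ATP6V1A and ATP6V0D1. In LW pigs 0 subunits and 0% of all genes passed, and 1006 genes had an unadjusted p under 0.05, including 1 subunit, ATP6V1F. The medians over the 10 subunits were 0.15 in CR pigs and 0.05 in LW pigs, beside 0.03 and 0.01 over all genes.

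Whether the heat effect differed between breeds was tested directly. The interaction of breed and climate passed the threshold in limma for 0 subunits and 0% of all genes. An unadjusted p under 0.05 was found for 1761 genes, including 2 subunits, ATP6V1E1 and ATP6V1H. The heat effect of F1 minus that of LW pigs passed for 0 subunits and 0% of genes, with 2698 genes at an unadjusted p under 0.05, including 4 subunits: ATP6V1B2, ATP6V1C1, ATP6V1E1 and ATP6V1H. For ATP6V1E1 this difference was -1.28 ± 0.45 (adjusted p = 0.12), with a 95% interval, not adjusted for the number of genes, from -2.20 to -0.36, and for ATP6V1H 0.38 ± 0.14 (adjusted p = 0.124). The heat effects of F1 and CR pigs, and those of CR and LW pigs, differed for 0 subunits and 0% of genes. Of 1429 genes with an unadjusted p under 0.05 in the former and 163 in the latter, 0 were subunits. A difference in heat effect between breeds was therefore not shown for any subunit.

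No subunit differed between breeds past the threshold. CR and LW pigs differed for 0 subunits, beside 1% of all genes, with 1 subunit at an unadjusted p under 0.05: ATP6V1H was higher in CR pigs by 0.23 ± 0.08 (adjusted p = 0.176). F1 and CR pigs differed for 0 subunits, beside 0.114% of all genes, again with ATP6V1H alone at an unadjusted p under 0.05. F1 and LW pigs differed for 0 subunits and 0% of all genes, and of 515 genes with an unadjusted p under 0.05, 0 were subunits. When the 6 groups were ordered by their mean, the step between neighbours exceeded their pooled SD once each for ATP6V1B2, ATP6V1C1, ATP6V1E1 and ATP6V1H, and at no step for the other 6 subunits. F1 pigs in TN conditions had the lowest mean for 6 subunits and the highest for 1, ATP6V1E1, for which F1 pigs in HS had the lowest.

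Fitted one by one, 11 of the 19 probes passed the threshold for HS against TN, 9 of them up-regulated, beside 34.8% of all 39072 probes. The probes of ATP6V1E1 moved together, with -0.87 ± 0.22 (adjusted p = 0.00357) for A_72_P497293 and -0.81 ± 0.20 (adjusted p = 0.00336) for O14775. All 3 probes of ATP6V1H rose, the identical pair by 0.24 and 0.21 and A_72_P188606 by 0.23. The probes of 4 genes differed in their call. For ATP6V1B2, A_72_P042616 rose by 0.21 ± 0.08 (adjusted p = 0.0279) and A_72_P148916 differed by 0.04 ± 0.06 (adjusted p = 0.628). For ATP6V1A, A_72_P223157 rose by 0.23 ± 0.05 (adjusted p = 0.00289) and O13344 differed by 0.05 ± 0.05 (adjusted p = 0.487). For ATP6V1C1 and ATP6V1D 1 of 2 probes was called, and both probes of each had a positive difference. When each gene was represented by its brightest probe, 5 of the 10 subunits were called, near the 40.3% of all genes called in that setting, and ATP6V1A, ATP6V1B2 and ATP6V1C1 no longer were.

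**Figure D3:**
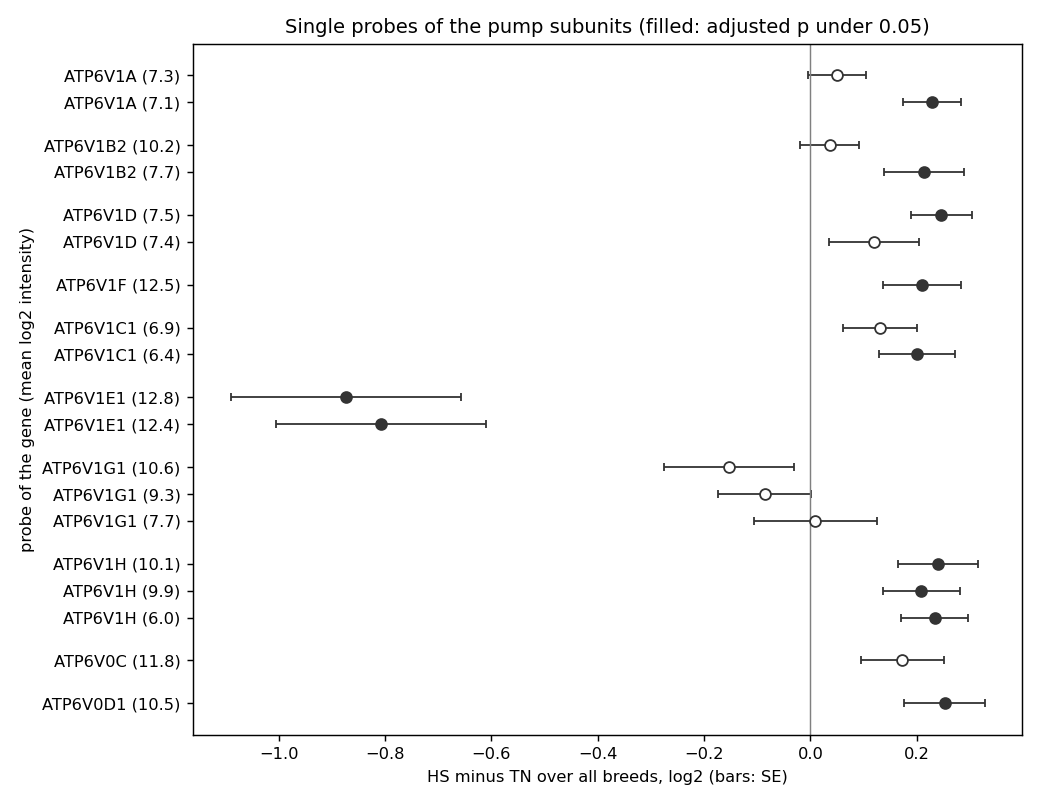
Log2 difference of HS minus TN over all breeds (horizontal axis, bars are SE) for each of the 19 probes, labelled by gene and by the mean log2 intensity of the probe, with filled symbols for an adjusted p under 0.05. Both probes of ATP6V1E1 lie near -0.8 to -0.9, the 3 probes of ATP6V1H lie between 0.21 and 0.24, and the probes of ATP6V1A and ATP6V1B2 are split between a called and an uncalled one.

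Across the 35 arrays the subunits did not vary as a block. Over the 45 pairs of subunits, Pearson's r between log2 values had a median of 0.27 and ranged from -0.64 to 0.79, with 33 positive pairs. These correlations share the difference between HS and TN: after the mean of each group was subtracted, the median was -0.0017 and the range -0.57 to 0.71. Among every 20th named gene outside the subunits, the median r without such subtraction was 0.0013. ATP6V1B2 had the highest median r with the other subunits (0.48) and ATP6V1E1 the lowest (-0.56). The 5 genes outside all lists whose log2 values were most like the mean z-score of the 10 subunits over the 35 arrays were APH1A (r = 0.86), a subunit of gamma-secretase, LAMP-1 (0.84), listed as LAMP1 in the pig gene table and encoding a major lysosomal membrane glycoprotein, LOC414413 (0.83), LOC100337287 (0.83) and GTF2E2 (0.82), a subunit of a general transcription factor. With the group means subtracted from both, r lay between 0.64 and 0.75. The 5 genes were all up-regulated in HS, by 0.29, 0.37, 0.22, 0.19 and 0.21 in the same order. In every breed the mean z-score used for the choice was itself higher in HS than in TN. Genes chosen in this way tend to rise in HS too, so their rise is no separate result. The r within groups comes from the same arrays as the choice and is not independent of it.

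As a list, markers of red cells and their precursors moved with ATP6V1E1. Of the 15 measured genes on a list of 22 erythroid markers, 8 fell in HS and 0 rose, with a median log2 difference of -0.51. Among all named genes 16% fell and 24.1% rose. The list was not uniform: HBB, SLC4A1 and AHSP differed by -0.13, -0.16 and -0.06 and were not called. The mean of the list ranged from 10.34 to 12.11 in F1 pigs in TN and from 9.22 to 10.67 in HS, from 9.91 to 11.25 and from 9.59 to 11.11 in CR pigs, and from 10.46 to 11.34 and from 10.07 to 10.97 in LW pigs. As a description, ATP6V1E1 had a Pearson's r of 0.87 with the mean of the list over the 35 arrays, and 0.79 after the group means were subtracted. The other 9 subunits had r between -0.56 and -0.02, and between -0.42 and 0.01 after the group means were subtracted. With the list as a covariate, the difference of ATP6V1E1 was -0.29 (adjusted p = 0.208), and 0 subunits and 12 of all named genes were called over the breeds. In that fit the differences of ATP6V1A, ATP6V1B2, ATP6V1C1, ATP6V1D and ATP6V1H were 0.13, 0.10, 0.13, 0.16 and 0.20, beside 0.14, 0.13, 0.17, 0.18 and 0.23 without it. Those of ATP6V1F, ATP6V0D1 and ATP6V0C were 0.14, 0.15 and 0.07, beside 0.21, 0.25 and 0.17, and that of ATP6V1G1 was -0.12, beside -0.08. After ATP6V1E1, ATP6V0D1 and ATP6V0C had the within-group r with the list that was farthest from 0, -0.42 and -0.39.

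**Figure D4:**
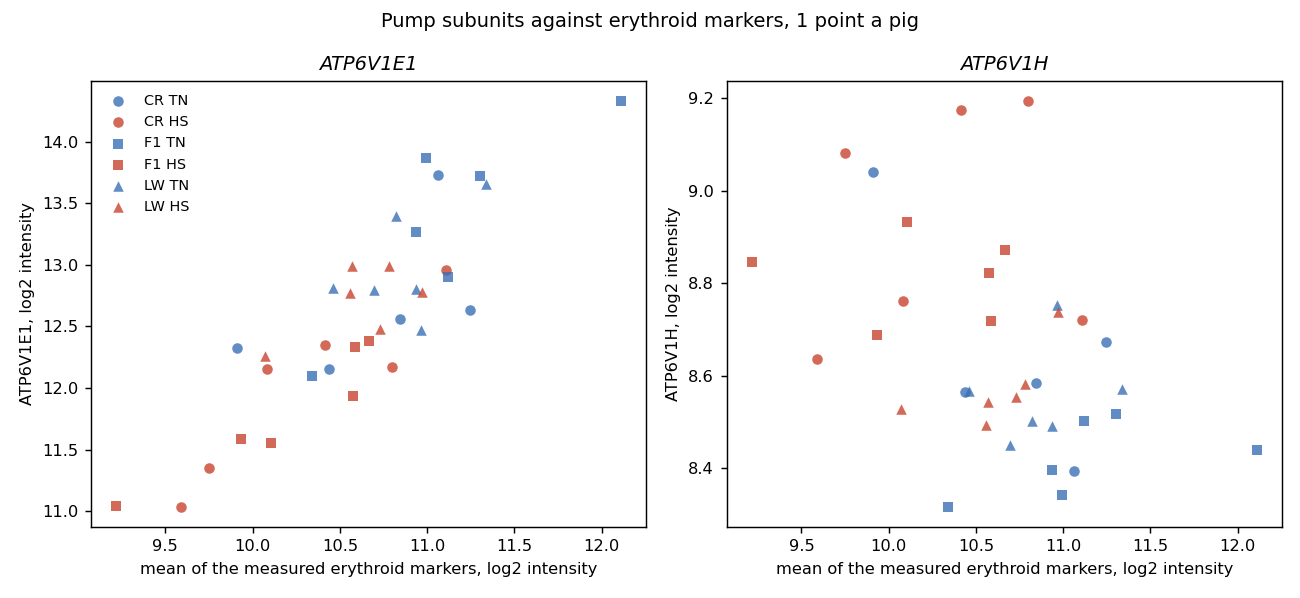
Log2 intensity of ATP6V1E1 (left) and ATP6V1H (right) against the mean log2 intensity of the 15 measured erythroid markers, 1 point a pig, with symbols for breed and colours for climate. The points of ATP6V1E1 follow the markers (r = 0.87 over 35 arrays), and those of ATP6V1H lie lower at higher markers (r = -0.42), with no such slope within groups (0.01).

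Lists of markers of other blood cells were also measured. In HS 1 of 9 neutrophil markers fell, 3 of 9 monocyte markers rose, 0 of 6 platelet markers passed in limma (0 at an unadjusted p under 0.05), and 3 of 10 T cell and 2 of 5 B cell markers rose, where 24.1% of all named genes rose and 16% fell. With the neutrophil list as a covariate 8 subunits were called, beside 35.4% of all genes. ATP6V1E1 had an r of 0.48 with the mean of the neutrophil list (0.53 with group means subtracted), -0.56 (-0.61) with the T cell list, -0.59 (-0.43) with the B cell list, -0.49 (-0.39) with the platelet list and -0.14 (0.14) with the monocyte list. ATP6V0C had an r of 0.74 with the mean of the platelet list (0.72 with group means subtracted) and ATP6V0D1 0.60 (0.63), whereas ATP6V1C1 had 0.58 with the T cell list (0.52). The monocyte, platelet, T cell and B cell lists were not used as covariates, and their part in the differences between HS and TN was not tested. For neutrophils only the covariate fit above was run.

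Calls for HS against TN over the breeds depended on the F1 pigs, for the subunits as for all named genes. Without the F1 pigs 0 subunits and 0 of all named genes passed the threshold over both remaining breeds, where ATP6V1E1 differed by -0.47 and ATP6V0D1 by 0.24. Without the CR pigs 4 subunits were called, near the 36.6% of all genes, and without the LW pigs 7, beside 35.3% of all genes. Each of these fits had fewer pigs. The arrays of F1 pigs in TN conditions had the lowest mean 75th percentile of the processed intensity, 149.9 (112 to 186), against 237.9 (172 to 266) in F1 pigs in HS and group means of 202 to 228 in the other 4 groups. With this percentile as a covariate 4 subunits and 21.9% of all genes were called over the breeds (ATP6V1A, ATP6V1E1, ATP6V1H and ATP6V0D1), and in F1 pigs 0 subunits and 0 of all genes. In F1 pigs the percentiles of TN and HS arrays overlapped little, so that fit could hardly tell climate apart from array signal there. ATP6V1E1 had an r of -0.73 with this percentile on the log2 scale (-0.66 with group means subtracted) and ATP6V1C1 0.63 (0.45). All arrays were scanned on 1 day on 5 slides, and within each of the 4 slides that allowed a fit ATP6V1E1 was lower in HS, by 1.06, 0.78, 1.01 and 0.67, and 8 or 9 of the 10 subunits had a positive difference. With the slide as a block 8 subunits were called over the breeds, beside 40.9% of all genes, and 7 in F1 pigs, beside 47% of all genes.

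The remaining subunits and accessory proteins were measured for 10 of 16 genes on a list, of which 4 rose and 0 fell in HS over the breeds, beside the 24.1% of all named genes that rose, with a median of 0.13. ATP6V1C2, a tissue-restricted form of subunit C, rose by 0.47 ± 0.13 (adjusted p = 0.00669), with probe A_72_P288224 well above background on 29 of 35 arrays and probe O2880, above background on all, up-regulated on its own (0.37, adjusted p = 0.00327). TCIRG1, the a3 form of the proton channel subunit found in osteoclasts and phagocytes, rose by 0.25 ± 0.08 (adjusted p = 0.0123), ATP6AP1, an accessory and assembly protein, by 0.24 ± 0.08 (adjusted p = 0.023), and ATP6V0E1, a small membrane subunit, by 0.23 ± 0.07 (adjusted p = 0.0119). ATP6AP2, RNASEK, ATP6V0B, ATP6V1G3, ATP6V0E2 and ATP6V0A1 did not pass, with differences of 0.14, 0.12, 0.07, 0.03, -0.04 and -0.11. In F1 pigs 3 of the 10 rose and 1 fell, beside 24.2% and 19.2% of all named genes that rose and fell there. The gene that fell was ATP6V0A1, the a1 form of the channel subunit, by 0.42 ± 0.16 (adjusted p = 0.0296).

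**Figure D5:**
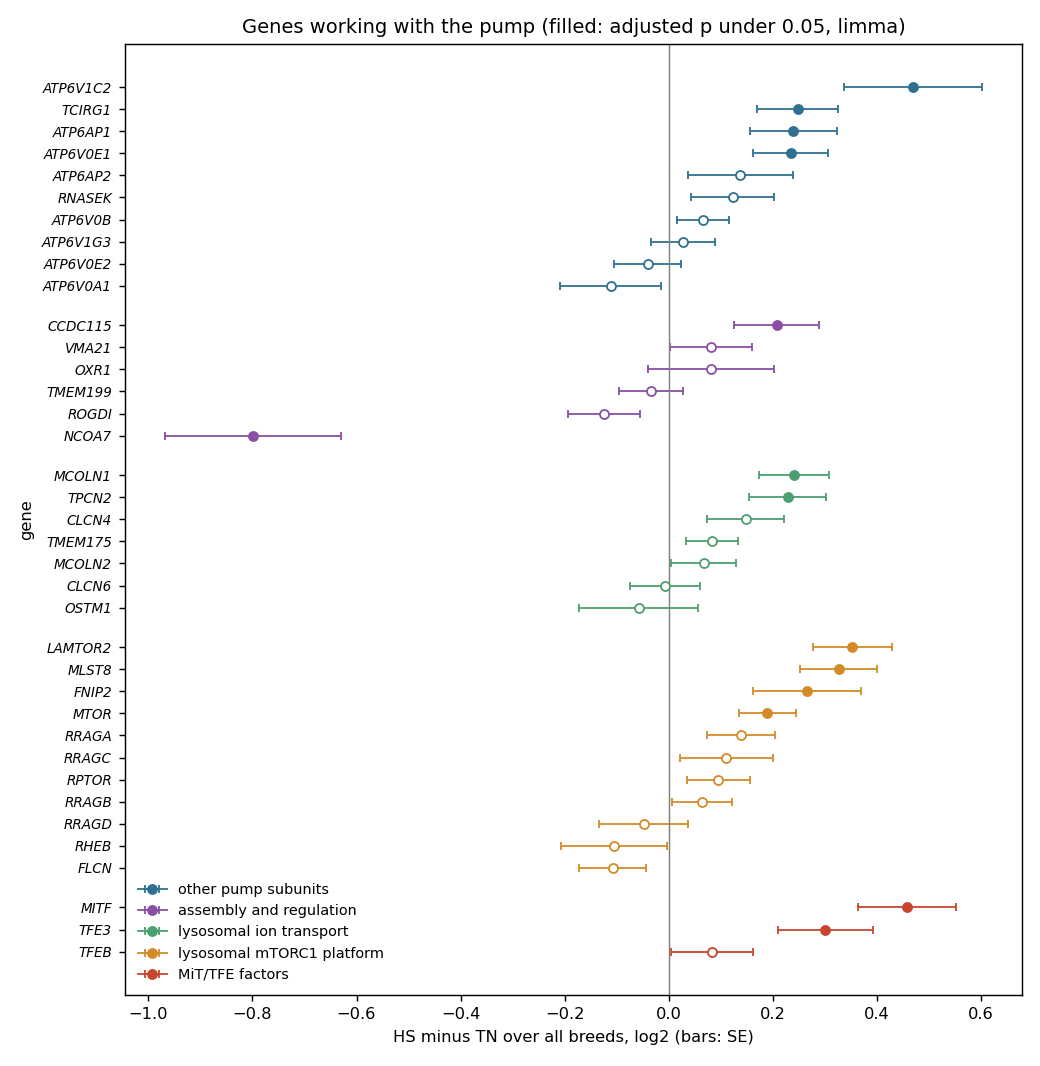
Log2 difference of HS minus TN over all breeds (horizontal axis, bars are SE) of measured genes from 5 lists that work with the pump, with filled symbols for an adjusted p under 0.05 in limma. MITF, LAMTOR2 and ATP6V1C2 lie between 0.35 and 0.47, and NCOA7 stands alone at -0.80.

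Of 6 measured genes for the assembly and regulation of the pump, 1 rose and 1 fell, where 24.1% of all named genes rose and 16% fell. CCDC115, an assembly factor, rose by 0.21 ± 0.08 (adjusted p = 0.0413), and NCOA7, whose TLDc domain proteins interact with the V1 sector, fell by 0.80 ± 0.17 (adjusted p = 0.00137). The probes of NCOA7 differed in call, with -1.07 and -1.05 (adjusted p = 0.00159 each in limma) and -0.27 (adjusted p = 0.173). Of 7 genes for lysosomal ion transport, 2 rose, near the share of all genes, and 0 fell: MCOLN1, the lysosomal calcium channel mucolipin, by 0.24 ± 0.07 (adjusted p = 0.00626) and TPCN2, a channel of the same membrane, by 0.23 ± 0.07 (adjusted p = 0.0154). Of 11 genes of the lysosomal platform on which mTORC1 senses amino acids together with the pump, 4 rose and 0 fell over the breeds. LAMTOR2, a part of the Ragulator scaffold, rose by 0.35 ± 0.08 (adjusted p = 0.00141) and MLST8, a subunit of mTORC1, by 0.33 ± 0.07 (adjusted p = 0.00176). The medians of the 3 lists were 0.02, 0.08 and 0.11, beside 0.05 over all genes. In F1 pigs, 3 of the 11 genes of the mTORC1 platform rose and 1 fell, beside 24.2% and 19.2% of all named genes there.

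Among the MiT/TFE factors, which bind the promoters of lysosomal genes, MITF rose by 0.46 ± 0.09 (adjusted p = 0.00123) in all 6 of its probes and TFE3 by 0.30 ± 0.09 (adjusted p = 0.00994). TFEB was not called (0.08 ± 0.08, adjusted p = 0.409), and its 3 probes disagreed, with 0.35 (adjusted p = 0.00988), 0.05 and -0.15. Within F1 pigs MITF rose by 0.50 ± 0.16 (adjusted p = 0.0159) and TFE3 by 0.44 ± 0.16 (adjusted p = 0.0223). In CR and LW pigs MITF differed by 0.49 and 0.39 and TFE3 by 0.31 and 0.15, none of them past the threshold.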

How the data were processed

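Whole blood RNA of 35 pigs was hybridised on a custom porcine Agilent array, and Feature Extraction 10.10.1.1 is named as the reading software per the file headers. The authors deposited scanner files with the raw median and processed intensity of each spot, not normalized between arrays, and a table of log2 values of 39072 probes, for which they quantile-normalized the median intensity and kept probes called expressed. These deposited log2 values were the main values here. Values recomputed from the median intensity differed from them by a median of 0.0235 in size.

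Probes were named by the gene name of the scanner files in capitals, and probes of a gene were averaged. Breed and climate (additive) and the 6 group means were fitted over all 35 arrays with limma 3.58.1 in R 4.3.3, with two-sided tests and Benjamini-Hochberg adjustment over 11400 genes. Pen, day of slaughter and parents, random effects in the study, are in no label. The study, which fitted them, reported far fewer differing probes in blood than the 13601 called here over the breeds. The script for these fits was tested on simulated data. The members and lists were chosen with earlier results of these data known. All 10 members were named, with every measured gene of the lists of other subunits and MiT/TFE factors, up to 2 genes per direction of the other lists, and the 5 genes most correlated with the members. Alternatives were other normalizations, background corrections, probe filters and probe summaries, the slide, array weights, marker lists as covariates, and leaving out each array or F1 pigs. Each breed was also fitted alone for its own difference between HS and TN. Leaving out CR or LW pigs and the array signal as a covariate were chosen after seeing the data. A search of promoters for E-box motifs was not run. The files place no probe on a genome, so no coordinates are given. The number of arrays limits the precision.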

Additional observations from a re-analysis of the deposited data

Results flagged for a closer look

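Of 60 sets of values (10 subunits in 6 groups), 2 held a pig whose distance to the nearest other pig was large for its group, and chance gives about 1 such set in 20. ATP6V1F was 13.15 in 1 LW pig in HS, above the other 5 at 12.39 to 12.50. ATP6V1H was 8.74 in another LW pig in HS, above the other 5 at 8.49 to 8.58.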

How the results depend on the processing

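Over the breeds, 8 subunits were called in the main setting, 5 with the brightest probe, 0 with the erythroid list as covariate, 0 without F1 pigs, and, among settings added after seeing the data, 4 without CR pigs and 4 with the array signal as covariate. In F1 pigs, 6 were called in the main setting, 1 with the erythroid list and 0 with the array signal. Array weights gave 5 there, beside 45.9% of all genes, and the brightest probe 4, beside 44.1%. A fit on F1 pigs alone also gave 4, beside 35.1%. Array weights gave 1 call in CR pigs and 2 for CR minus LW pigs, where the main setting gave 0. ATP6V1G1 changed sign without LW pigs, to 0.0168. Leaving out 1 array at a time gave 8 to 9 calls over the breeds and 5 to 7 in F1 pigs, and 0 in the other 9 comparisons. ATP6V0C was called (0.19 to 0.20) without any 1 of 4 arrays: replicate 5 of LW pigs in HS, replicate 4 of CR pigs in HS, and replicates 5 and 6 of LW pigs in TN. Over all genes, 4575 were called over the breeds against 12 with the erythroid list, 0 without F1 pigs and 2495 with the array signal. In F1 pigs it was 4943 against 916 with the erythroid list and 0 with the array signal, and for CR minus LW pigs 114 against 220 with the erythroid list. Array weights gave 459 genes in CR pigs, 691 in LW pigs and 1148 for the heat effect of F1 minus LW pigs, each 0 in the main setting, and 345 for CR minus LW pigs. The cause of these changes was not tested. Scaling to the 75th percentile, normexp and recomputed intensities each kept 8 subunits called over the breeds, beside 40.3% to 40.7% of all genes. The filter for probes well above background, the slide as a block and the neutrophil list also kept 8, beside 35.4% to 41.6%. Without a filter on dim probes 7 were called, beside 29.5% of all genes. Array weights gave 9, beside 51.1% of all genes. The recomputed intensities left 11 probes called. The difference of ATP6V1B2 in LW pigs, -0.0031, was 0.06 after scaling to the 75th percentile. No paired analysis was possible because the numbers of the pigs within a group are only an order of records.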
